A study of Rattus norvegicus with 6 samples.

Results

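Genes that control muscle wasting and muscle growth were followed in the skeletal muscle of newborn rats that differed in birth weight. The group consists of 9 listed genes around the atrophy ubiquitin ligases, the FoxO factors and myostatin: *Fbxo32*, *Trim63*, *Foxo1*, *Foxo3*, *Mstn*, *Fst*, *Acvr2b*, *Inhba* and *Eif4ebp1*. They were chosen by name, and a gene was kept when a row of the array table carried a RefSeq accession that the rat RefSeq gene table gives to its symbol. This held for 7 of the 9 genes, each with 1 row, out of 26419 rows in all. *Foxo1* and *Foxo3* had no matched row and were not analysed here, so that the FoxO branch is seen only through its target genes. Of all rows, 9747 received a symbol (9627 distinct symbols). Averaging the rows of a symbol left 26299 features, over which all p-values were adjusted.

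The samples were the soleus and gastrocnemius muscles, joined in 1 sample per pup, of 1-day-old male Wistar pups, 3 of lower birth weight (LBW, percentiles 5 to 25) and 3 of average birth weight (ABW), with 1 single-colour NimbleGen array per pup and no treatment in either group. For the ABW pups the sample characteristics give percentiles 25 to 75, whereas the treatment protocol and the paper's methods give 50 to 75. Birth weight varied naturally, without an imposed growth restriction, and the labels do not say which pups shared a litter. Values are log2 signals of a transcript as the authors deposited them, and a difference is the LBW mean minus the ABW mean on that scale. An array signal depends on its probes, so that levels are compared between pups and not between genes. The call used is that of the study, an unadjusted p under 0.05 with a fold change of at least 1.5 (a log2 difference of 0.585), here by limma. Precision is limited by the number of arrays. For 1 gene, an exact permutation test of 3 pups against 3 has 0.1 as its smallest 2-sided p.

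Skeletal muscle loses protein in large part through the ubiquitin-proteasome system. *Fbxo32* (atrogin-1, also called MAFbx) and *Trim63* (MuRF1) encode muscle ubiquitin ligases whose transcription FoxO factors switch on when Akt is inactive. Myostatin (*Mstn*) and activin A, a dimer of the subunit encoded by *Inhba*, restrain muscle growth by binding type II activin receptors such as Acvr2b and signalling through Smad2 and Smad3. Follistatin (*Fst*) binds and neutralizes both ligands and so permits growth. 4E-BP1 (*Eif4ebp1*) holds back cap-dependent translation until mTORC1 phosphorylates it. In the counts given here *Fst* is the growth-permitting gene and the other 6 measured members are growth-restraining.

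The arrays carried the markers of the labelled tissue. Of 17 skeletal muscle markers with a row, 15 lay above the median signal of all features, among them *Acta1* (15.32 in LBW and 15.36 in ABW pups) and *Tnnc2* (15.21 and 15.23), and 0 of the 17 passed the call. Not all were level, since their log2 differences ran from -1.04 to 0.41, 10 with a higher and 7 with a lower LBW mean. The pups differed in markers of other tissues, some of which the study lists as changed on these arrays. Of 12 bone markers with a row, 6 were called higher in LBW, and the mean of the 12 genes lay 2.49, 0.38 and 3.25 above the ABW mean in LBW 1, 2 and 3. All 10 adipocyte markers with a row had a lower LBW mean, 2 of them called. Of the 5 cartilage markers with a row 1 was called, higher in LBW, and 0 of 4 erythroid, 6 macrophage and 3 muscle precursor markers were. LBW 2 correlated better over all features with ABW 1 (r = 0.992) and with ABW 2 (0.992) than with LBW 3 (0.987).

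In the RefSeq promoter table (assembly GRCr8), 3 of the 7 measured members had an entry, *Trim63*, *Acvr2b* and *Inhba*. The 250 bases before the start site are shown for *Trim63*, a FoxO target, and for *Inhba*, the member with the smallest p. In capitals are matches to the FoxO core GTAAACA, to the glucocorticoid response element (GNACA and TGTNC with 3 bases between them) and to the TATA box TATAAA, searched on both strands.
*Trim63*, chr5:151816986-151817235, plus strand: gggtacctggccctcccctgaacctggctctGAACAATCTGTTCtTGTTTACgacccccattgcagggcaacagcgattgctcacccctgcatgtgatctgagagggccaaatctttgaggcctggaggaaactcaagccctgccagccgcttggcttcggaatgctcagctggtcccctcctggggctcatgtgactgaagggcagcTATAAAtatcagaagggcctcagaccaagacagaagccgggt
*Inhba*, chr17:53804509-53804758, minus strand: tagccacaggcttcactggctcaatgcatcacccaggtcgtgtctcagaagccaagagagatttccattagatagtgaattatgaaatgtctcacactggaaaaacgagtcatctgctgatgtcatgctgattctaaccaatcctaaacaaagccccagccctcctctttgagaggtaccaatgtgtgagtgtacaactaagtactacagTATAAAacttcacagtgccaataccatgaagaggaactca
The *Trim63* window holds the glucocorticoid element 219 to 207 bases before the start site and, after 1 further base, the FoxO core on the opposite strand, 205 to 199 bases before it. Of the 33469 promoters in the table, 3.21% hold the FoxO core in this window, 0.374% the glucocorticoid element and 3 hold both. Of 17 promoters of listed FoxO target genes, 1 holds the FoxO core, that of *Trim63*. The TATA box, which 12.9% of promoters hold, stands 42 to 37 bases before the start of *Trim63* and 40 to 35 bases before that of *Inhba*. *Trim63* also has the E-box CAGCTG, found in 12.0% of promoters, 83 to 78 bases before its start. The window of *Acvr2b* holds none of these letters. A match is a stretch of letters and not a measured binding site.

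None of the 7 measured members was called between LBW and ABW muscle, where 4.27% of all features were (2.38% higher and 1.89% lower in LBW). Of all features, 0 passed an adjusted threshold of 0.05 in limma, with 0.214 as the lowest adjusted p, while 125 passed without LBW 2. At an unadjusted p under 0.05 without the fold change criterion there were 3 members, *Inhba* and *Acvr2b* with a higher and *Fst* with a lower LBW mean, against 12.4% of all features (5.63% higher and 6.73% lower). Of these 3, only *Fst* stayed under it with an intensity trend or array weights, only *Inhba* and *Acvr2b* with the replicate block or robust variance, and none by the methods' test. The methods' test, which takes the variance of each gene alone, called 0 members and 584 features, and 0 features after adjustment. The means of the members differed by 1.51-fold or less in either direction. In the plot of log2 signals by pup, the LBW and ABW pups overlap for 6 of the 7.

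**Figure D1:**
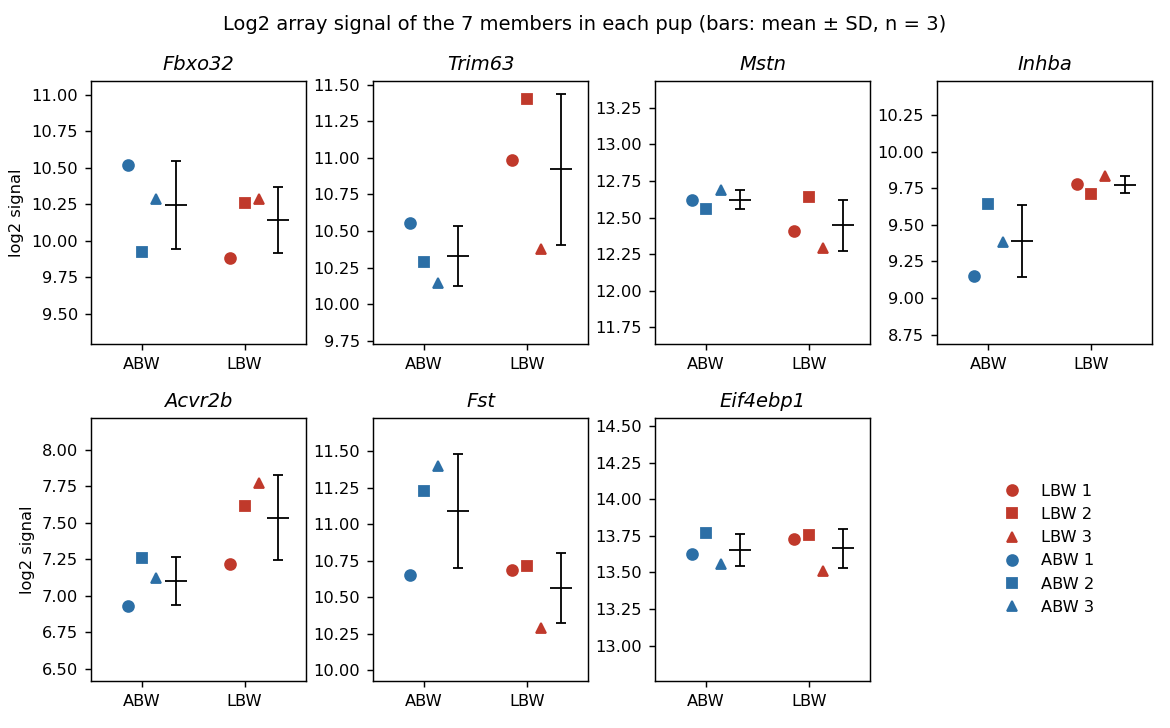
Log2 array signal (y axes, each spanning 1.8 units) of the 7 members in the ABW and LBW pups (x axes), with 1 point per pup and bars for the mean ± SD of 3 pups. *Inhba* is the only member whose LBW points all lie above its ABW points; *Trim63* is high in LBW 1 and LBW 2, and *Fst* is high in ABW 2 and ABW 3.

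The 2 atrophy ligases did not share a pattern. *Trim63* (NM_080903) was at 10.98, 11.40 and 10.38 in LBW 1, 2 and 3 and at 10.55, 10.29 and 10.15 in ABW 1, 2 and 3. LBW 1 and LBW 2 thus stood above all ABW pups, while LBW 3 lay below ABW 1. The LBW mean of 10.92 ± 0.52 (SD, n = 3) and the ABW mean of 10.33 ± 0.21 (SD, n = 3) gave a fold change of 1.51 (log2 0.59, SE 0.26, adjusted p = 0.431 by limma). It was the largest difference of the 7 members, and the unadjusted p of 0.0622 kept it from the call. The exact permutation test gave p = 0.2 (2-sided). The pup left out decided the outcome, because *Trim63* passed the call without LBW 3 (log2 0.86, adjusted p = 0.241) and had a log2 difference of 0.35 without LBW 2. It also passed with an intensity trend in the variance (0.59, unadjusted p = 0.0413), with array weights (0.69, unadjusted p = 0.0199) and in the fit blocked by replicate number (0.59, unadjusted p = 0.0336).

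*Fbxo32* (NM_133521) was at 9.88, 10.26 and 10.28 in the LBW pups (1, 2 and 3), against 10.52, 9.92 and 10.29 in ABW 1, 2 and 3. The highest value belonged to an ABW pup and the lowest to an LBW pup, with the other values between them in no order by group. The log2 difference was -0.10 (SE 0.19, adjusted p = 0.858 by limma), and its 95% interval, from -0.55 to 0.34, does not reach a 1.5-fold change in either direction. Its sign turned without LBW 1 (0.02) and without ABW 1 (0.03). LBW 1 had the second highest *Trim63* value and the lowest *Fbxo32* value of the 6 pups.

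Among the ligands, the LBW mean was lower than the ABW mean for myostatin and higher for the activin subunit. *Mstn* (NM_019151) was at 12.41, 12.64 and 12.29 in LBW 1, 2 and 3 and at 12.62, 12.56 and 12.69 in ABW 1, 2 and 3. LBW 2 lay inside the narrow ABW range, and LBW 1 and LBW 3 lay below it. The log2 difference was -0.18 (SE 0.11, adjusted p = 0.575 by limma; exact permutation test, 2-sided p = 0.3), with a 95% interval from -0.45 to 0.10. Without LBW 2 it was -0.27 (adjusted p = 0.359) and without LBW 3 -0.10.

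*Inhba* (NM_017128) was at 9.78, 9.71 and 9.83 in LBW 1, 2 and 3, and at 9.15, 9.64 and 9.39 in ABW 1, 2 and 3. It was the 1 member of 7 with every LBW pup above every ABW pup, as in 7.27% of all features, and the nearest pups, LBW 2 and ABW 2, were 0.071 apart. The LBW pups were close together, at 9.78 ± 0.06 (SD, n = 3), and the ABW pups spread more, at 9.39 ± 0.25 (SD, n = 3). The fold change was 1.30 (log2 0.38, SE 0.14, adjusted p = 0.351 by limma), with the smallest unadjusted p of the members (0.0283) and an exact permutation p of 0.1. Over the pups left out, the log2 difference ran from 0.26 (without ABW 1) to 0.51 (without ABW 2).

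The receptor gene *Acvr2b* (NM_031554) was at 7.22, 7.62 and 7.77 in the LBW pups (1, 2 and 3), against 6.93, 7.26 and 7.12 in ABW 1, 2 and 3. LBW 2 and LBW 3 were above all ABW pups and LBW 1 was just below ABW 2. The fold change was 1.35 (log2 0.43, SE 0.17, adjusted p = 0.377 by limma; exact permutation test, 2-sided p = 0.2), and without LBW 1 it passed the call (log2 0.59, adjusted p = 0.494). The row is dim, with an ABW mean of 7.10 where the median over all features was 8.70, and how far this lies above background is unknown because the deposited values carry no detection call.

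The antagonist *Fst* (NM_012561) was at 10.68, 10.72 and 10.29 in LBW 1, 2 and 3 and at 10.66, 11.23 and 11.40 in ABW 1, 2 and 3. ABW 1 lay among the LBW pups, below LBW 1 and LBW 2, whereas ABW 2 and ABW 3 were above all other pups. The LBW mean was 10.56 ± 0.24 (SD, n = 3) and the ABW mean 11.09 ± 0.39 (SD, n = 3). LBW signal was thus 0.693 times the ABW signal (log2 -0.53, SE 0.22, adjusted p = 0.404 by limma; exact permutation test, 2-sided p = 0.3). Without ABW 1 the log2 difference was -0.75 (adjusted p = 0.222) and passed the call. Without ABW 3 it was -0.38.

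*Eif4ebp1* (NM_053857) was at 13.73, 13.76 and 13.51 in LBW 1, 2 and 3, and at 13.63, 13.77 and 13.56 in ABW 1, 2 and 3. Both groups covered almost the same range. The log2 difference was 0.01 (SE 0.11, adjusted p = 0.973 by limma), and the 95% interval ran from -0.25 to 0.27, so that this repressor of translation had the tightest interval of the 7 members. Its sign changed with the pup left out (from -0.03 to 0.09). The arrays measure its RNA and not the phosphorylation that sets its activity.

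**Figure D2:**
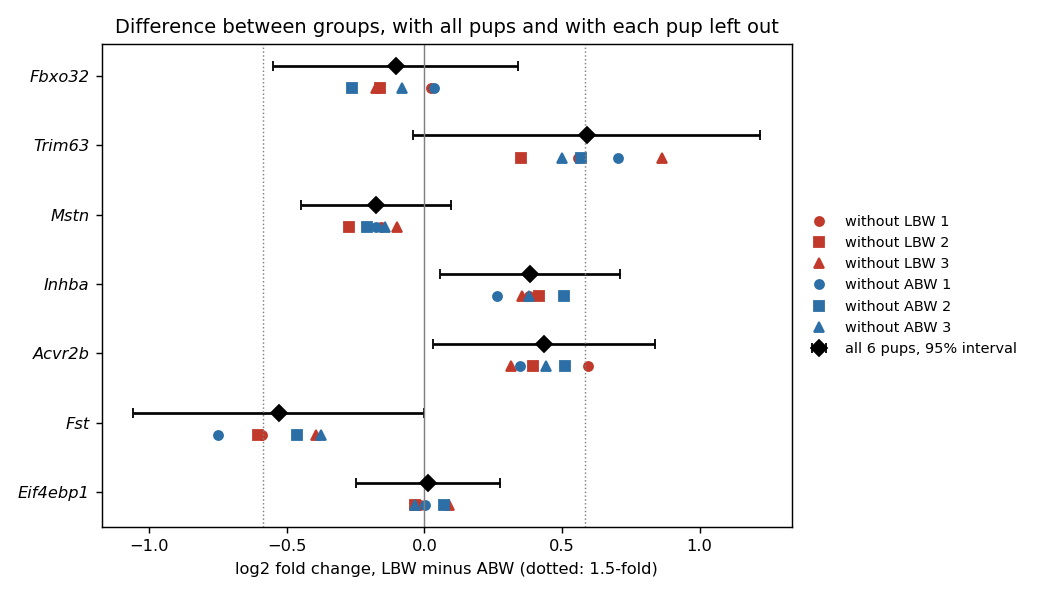
Log2 fold change of LBW over ABW (x axis) for each member (y axis), as the limma estimate with its 95% interval over all 6 pups (black) and as the estimate with each pup left out (coloured). The intervals of *Inhba*, *Acvr2b* and *Fst* leave out 0 before adjustment, that of *Trim63* is the widest, and those of *Fbxo32* and *Eif4ebp1* lie around 0.

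The growth-restraining members were set against the growth-permitting one by taking each gene's deviation from its ABW mean. The mean deviation of the 6 restraining genes was 0.11, 0.34 and 0.12 in LBW 1, 2 and 3, and 0.01, 0.02 and -0.03 in ABW 1, 2 and 3. All LBW pups were on the higher side, with LBW 2 the highest. This separation rested on single genes, because the groups overlapped when *Trim63* was left out (LBW 1 at 0.00011 and ABW 2 at 0.03), and likewise when *Inhba* or *Acvr2b* was left out. The deviation of *Fst* was -0.41, -0.38 and -0.80 in LBW 1, 2 and 3, and -0.44, 0.13 and 0.30 in ABW 1, 2 and 3. Restraining genes minus *Fst* came to 0.52, 0.72 and 0.93 in the LBW pups (1, 2 and 3), against 0.45, -0.12 and -0.33 in ABW 1, 2 and 3. ABW 1 was nearly at the value of LBW 1 and far from the other ABW pups. The mean difference of 0.72 stayed between 0.55 (without ABW 3) and 0.94 (without ABW 1). No test was made of this balance, since its genes were listed with earlier results of these arrays known.

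**Figure D3:**
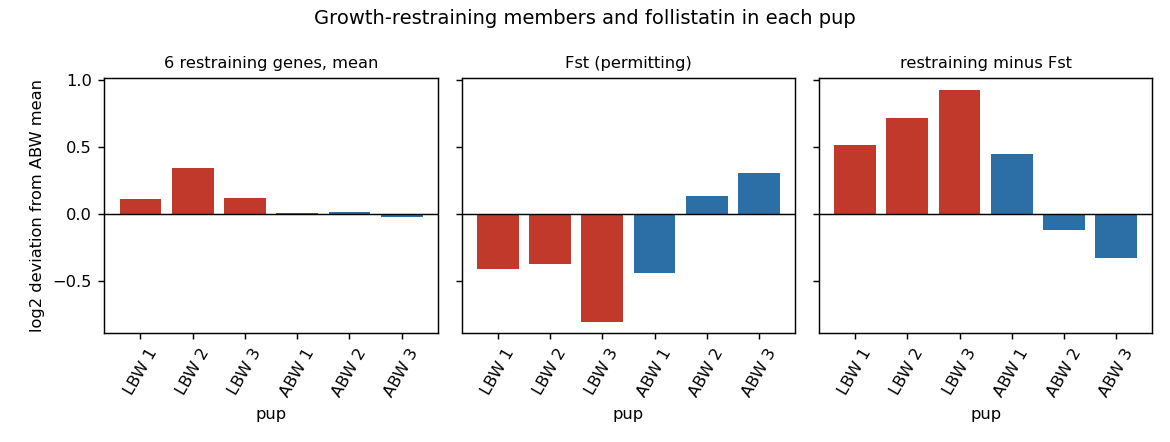
Log2 deviation from the ABW mean (y axis) in each pup (x axis; LBW red, ABW blue) for the mean of the 6 growth-restraining members, for *Fst* and for their difference. The difference is positive in all LBW pups and also in ABW 1, where it is 0.45, and *Fst* makes up the larger part of it in each of these pups.

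The pups with low *Fst* also had low adipocyte markers. The mean deviation of the 10 adipocyte markers was -0.60, -0.37 and -1.43 in LBW 1, 2 and 3, and -0.80, 0.53 and 0.27 in ABW 1, 2 and 3. From the lowest pup upwards, LBW 3, ABW 1, LBW 1 and LBW 2 came in the same order for *Fst* and for these markers, and ABW 2 and ABW 3 were highest for both. On the log2 scale the summed signal of the markers ran from 15.40 to 15.88 in LBW and from 15.73 to 16.35 in ABW pups, and among them *Fabp4* (14.73 in LBW and 14.92 in ABW pups) and *Lpl* (13.14 and 13.32) were not called. Of the 6 macrophage markers with a row, 5 had a lower LBW mean, and their mean deviation was -0.37 in ABW 1 and -0.26 in LBW 3, compared to 0.12 in ABW 2 and 0.24 in ABW 3. The part of these cells in the *Fst* values was not tested, and in whole muscle fewer cells of a type and less RNA per cell cannot be told apart. *Twist2*, a basic helix-loop-helix factor of mesenchymal cells, was the named gene above the median level whose 6 values were most like those of *Fst* (Pearson r = 0.995). It is named after its values were seen, and 45 such genes had r above 0.95 with *Fst*.

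*Inhba* followed the bone markers in order within the 3 LBW pups but not within the ABW pups, and *Trim63* did so in neither group. An order of 3 values is easily shared. In ABW 1, 2 and 3 the deviations were -0.24, 0.25 and -0.007 for *Inhba* and -0.09, -0.05 and 0.14 for the bone markers. *Inhba* lay 0.39, 0.32 and 0.44 above the ABW mean in LBW 1, 2 and 3, where the bone markers lay 2.49, 0.38 and 3.25 above it. In LBW 2, the bone markers were thus little raised and *Inhba* was nearly as high as in the other LBW pups. The summed signal of the bone markers ran from 15.14 to 16.52 in LBW and from 15.13 to 15.34 in ABW pups on the log2 scale, and among them *Phex* (10.66 in LBW and 10.07 in ABW pups) was called and *Col1a2* (14.98 and 15.15) was not. *Trim63* was highest in LBW 2, 1.07 above the ABW mean, and close to the ABW mean in LBW 3 (0.05), the pup with the highest bone signal. Of the 4 neutrophil precursor markers with a row, 3 were called higher in LBW, with mean deviations of 2.20, 1.07 and 2.12 in LBW 1, 2 and 3. *Acvr2b* lay 0.11, 0.51 and 0.67 above its ABW mean in LBW 1, 2 and 3, an order unlike that of the bone markers. The part of bone and blood cells in the *Inhba* and *Acvr2b* values was not tested.

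**Figure D4:**
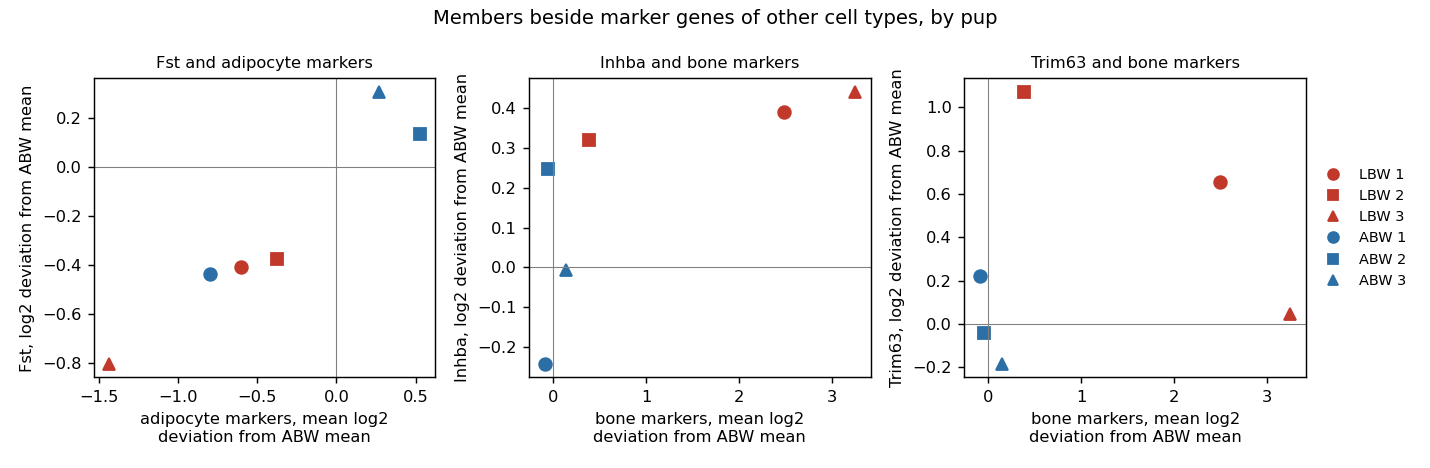
Log2 deviation from the ABW mean of *Fst*, *Inhba* and *Trim63* (y axes) against the mean deviation of adipocyte or bone markers (x axes), with 1 point per pup. *Fst* is low in the 4 pups with low adipocyte markers, ABW 1 among them, and *Trim63* is highest in LBW 2, where bone markers are 0.38 above the ABW mean.

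The genes whose values were most like those of *Inhba* over the 6 pups, among 5177 named genes above the median level, were *Arsa* (Pearson r = 0.985), *Cdk10* (0.983) and *Pus10* (0.974). *Arsa* encodes a lysosomal sulfatase, *Cdk10* a cyclin-dependent kinase and *Pus10* a pseudouridine synthase. With 6 pups a high r is easily reached, and 7 genes had r above 0.95. For *Trim63*, 37 genes had r above 0.95, with *Fgfrl1*, an FGF receptor-like gene named after its values were seen, at 0.999.

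The pathways around the members were covered by 8 lists, which hold 103 genes besides the members. Of these, 68 had a row, 44 with a higher and 24 with a lower LBW mean, where 44.4% of all features had a higher and 55.6% a lower one. Their median log2 difference was 0.04, compared to -0.02 over all features. The call was reached by 1 of the 68, *Acvr1c*, against 4.27% of all features. At an unadjusted p under 0.05 there were 7 (10.3%, against 12.4% of all features), 5 with a higher and 2 with a lower LBW mean. None passed after adjustment. In 10 of the 68 every LBW pup lay above every ABW pup, and in 2 below, where 7.27% and 10.1% of all features did so.

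Around *Mstn*, *Inhba* and *Acvr2b*, the receptor list held the 1 called gene. *Acvr1c*, which encodes the type I receptor ALK7 and is known from fat tissue, fell by 1.43 on the log2 scale (SE 0.58, adjusted p = 0.395 by limma). It was at 8.33, 8.73 and 6.57 in LBW 1, 2 and 3 and at 8.70, 9.79 and 9.43 in ABW 1, 2 and 3. LBW 3 carried much of the fall, which was 0.78 without it and no longer called, and ABW 1 lay below LBW 2, as it lay low for *Fst* and the adipocyte markers. The call was also lost without LBW 1, ABW 2 or ABW 3 and by the methods' test. The study itself lists *Acvr1c* among its changed genes from these arrays, so that its fall is not independent evidence. *Acvr1*, a type I receptor mainly of bone morphogenetic proteins, was 0.26 lower (adjusted p = 0.352 by limma), with no overlap between the groups (10.1% of all features lay wholly lower in LBW), and *Acvr1b*, the type I receptor ALK4 through which activin signals, was 0.23 higher (adjusted p = 0.572). *Tgfbr3*, a TGF-beta co-receptor, differed by -0.20.

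None of the 8 genes of the ligand list, 4 antagonists or 4 Smads with a row was called. *Inha* (0.21) and *Tgfb2* (0.18) had the largest differences of the ligand list after *Inhba*. *Inha* encodes the inhibin alpha subunit, which is not part of activin, and it ran from 0.072 (without ABW 3) to 0.44 (without ABW 1). Of the other antagonists, *Fstl3* (0.12) and *Grem1* (0.18) had higher LBW means and *Dcn* (-0.06) was almost level, none past an unadjusted p of 0.05. *Grem1* turned to -0.20 and *Dcn* to 0.01 without LBW 3. The rows of *Fstl3* and *Grem1* are dim, with ABW means of 6.98 and 7.42 where the median over all features was 8.70. *Smad3* (0.14) and *Smad4* (0.095) were higher in every LBW pup than in any ABW pup, as were 7.27% of all features. Both differences were far under the fold criterion. *Smad7*, which inhibits the pathway, differed by 0.26, but by 0.018 without ABW 2 and 0.48 without ABW 1, and *Smad2* by -0.12.

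Of the 16 FoxO target genes with a row, the 2 ligases included, none was called, 8 had a higher and 8 a lower LBW mean, and the median log2 difference was 0.00. *Trim63* had the largest difference of the list. *Pdk4*, which holds back glucose oxidation, followed with 0.33 (adjusted p = 0.493 by limma), then *Map1lc3a*, an autophagosome gene, with 0.31 (adjusted p = 0.395) and the growth-arrest gene *Gadd45a* with 0.30 (adjusted p = 0.650). *Gadd45a* was at 11.72, 12.24 and 11.25 in LBW 1, 2 and 3, the same order within the LBW pups as *Trim63*, compared to 11.53, 11.39 and 11.38 in ABW 1, 2 and 3. Its difference rested on LBW 2, without which it was 0.053, against 0.54 without LBW 3. Among the targets with a lower LBW mean, *Bnip3l*, a mitophagy receptor named after its values were seen, had the largest difference (-0.22, adjusted p = 0.420 by limma). Its groups did not overlap, where 10.1% of all features lay wholly lower in LBW. Upstream of FoxO, 0 of 8 genes were called. *Sgk1* (0.27), *Pik3r1* (0.25) and *Akt1* (0.19) differed most. Every LBW pup was above every ABW pup for *Akt1*, as in 7.27% of all features. *Sgk1* ran from 0.059 (without LBW 2) to 0.57 (without LBW 3), and *Pik3r1* from 0.16 (without LBW 1) to 0.43 (without LBW 3).

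Among 14 muscle ubiquitin ligases, E2 enzymes and related genes with a row, none was called, and 8 had a higher and 6 a lower LBW mean. The list was not tested as a set. An unadjusted p under 0.05 with a higher LBW mean was found for 3 of the 14, against 5.63% of all features, and with a lower LBW mean for 0. These were *Fbxo31* (0.43, adjusted p = 0.322 by limma), *Trim55* (0.32, adjusted p = 0.340) and *Usp19* (0.28, adjusted p = 0.376), the last of which is named after its values were seen. *Trim55* (MuRF2) and *Trim54* (MuRF3, 0.37, adjusted p = 0.416 by limma) are the closest relatives of *Trim63*. The LBW mean was higher for all 3 of these genes, where 44.4% of all features had a higher one. The LBW and ABW values of *Trim55* did not overlap, with 11.77 to 12.02 in LBW and 11.41 to 11.65 in ABW pups. Of all features, 7.27% lay wholly higher in LBW. *Trim54* was highest in LBW 2, at 12.59, as was *Trim63*, but its next LBW value was that of LBW 3 (12.28) and not of LBW 1 (12.13). *Trim55* went the other way, highest in LBW 3 (12.02) and, among the LBW pups, lowest in LBW 2 (11.77). The largest difference with a lower LBW mean was that of *Trim32* (-0.29, adjusted p = 0.489 by limma), a ubiquitin ligase of the same TRIM family. Its LBW and ABW values overlapped, and it is named after its values were seen.

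In the list of mTORC1 and cap-dependent translation, which holds *Eif4ebp1*, 0 of 16 genes were called and the median log2 difference was 0.02. *Eef2k*, the kinase that slows elongation, was 0.26 higher (adjusted p = 0.367 by limma). It was at 12.24 to 12.41 in LBW and 11.95 to 12.14 in ABW pups, where 7.27% of all features lay wholly higher in LBW. *Ddit4*, an inhibitor of mTORC1, differed by 0.22, *Tsc1* by -0.17 and *Rps6kb2* by -0.15, each with an adjusted p of 0.482 or more by limma. The *Ddit4* row is dim, with an ABW mean of 6.08 where the median over all features was 8.70.

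**Figure D5:**
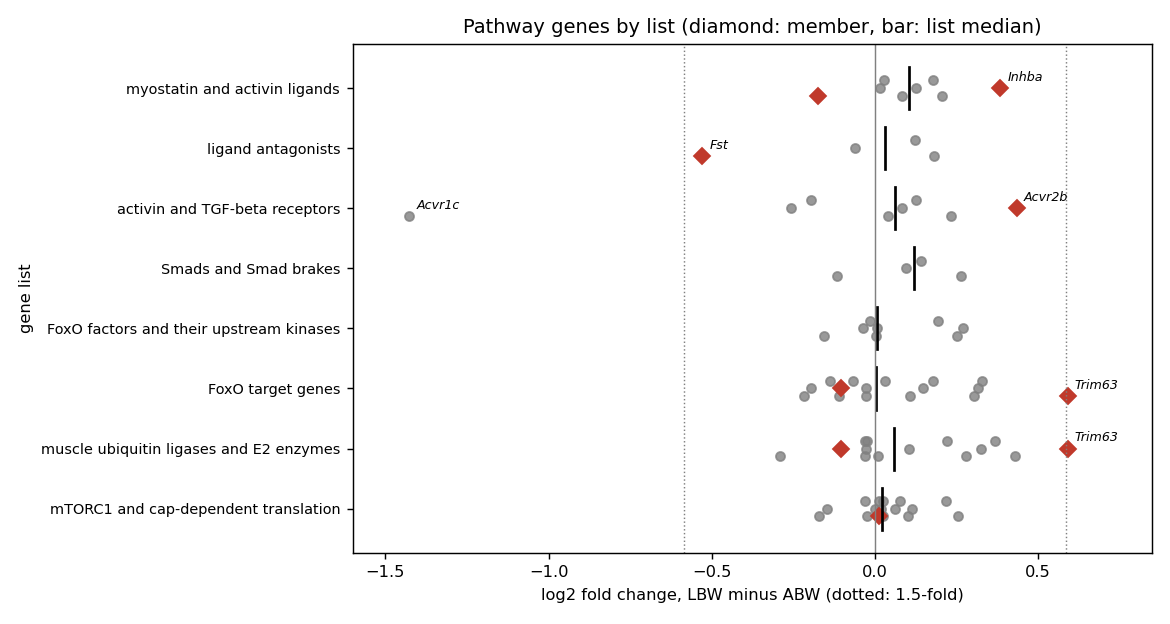
Log2 fold change of LBW over ABW (x axis) for every gene with a row in the 8 pathway lists (y axis), with members as red diamonds, other genes as grey points and list medians as black bars. Most genes lie within the dotted 1.5-fold lines, *Acvr1c* lies beyond the lower one, and *Trim63* lies just at the upper one.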

How the data were processed

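RNA from the muscle of 3 LBW and 3 ABW pups was hybridized to NimbleGen rat arrays with 5 probes per transcript, 1 array for each pup. The log2 values deposited by the authors had been normalized in R with Bioconductor (the submitters' processing notes name RMA, with no version), so that background correction, normalization and probe summary are already contained in them. No slide, scan or litter was given in the sources used here. Array medians lay between 8.70 and 8.76.

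Rows were named by unversioned RefSeq accession from a gene table of assembly GRCr8, and rows of a symbol were averaged. LBW minus ABW was fitted with limma 3.58.1 in R 4.3.3 (lmFit, eBayes) without covariates, filter or further normalization, and 2-sided p-values were adjusted by Benjamini-Hochberg over 26299 features. Single genes were also tested by exact permutation (20 splits). The limma p-values set the difference between the group means against the spread between these pups, moderated over all features. Both kinds of test take each pup as independent, although the labels do not say which pups shared a litter. The script was tested on simulated data. The members and lists were chosen with earlier results of these data known. Named are all members, the called genes and up to 4 others with the largest difference of each pathway list, the 3 genes most like the member with the smallest p, and the 2 genes of highest signal in the muscle, bone and adipocyte marker lists. Alternative settings were each pup left out, a block for the replicate number, quantile normalization, median centring, leaving out the dimmest 25%, an intensity trend, robust variance, array weights, the methods' test, single rows and other fold change criteria.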

Additional observations from a re-analysis of the deposited data

How the results depend on the processing

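The restraining mean without each of its genes was added after seeing the data. No count of members past the call exceeded 1, except that 3 had an unadjusted p under 0.05 when the fold change criterion was dropped. That count was 0 with all pups and 1 with an intensity trend or array weights (*Trim63*, 0.59 and 0.69), and from 0 to 1 over the pups left out, where *Trim63* ran from 0.35 to 0.86, *Acvr2b* from 0.31 to 0.59, *Fst* from -0.75 to -0.38, *Inhba* from 0.26 to 0.51, *Mstn* from -0.27 to -0.10, *Fbxo32* from -0.26 to 0.034 and *Eif4ebp1* from -0.034 to 0.091. *Fbxo32* turned without LBW 1 (0.02) and ABW 1 (0.034), and *Eif4ebp1* without LBW 1 (-0.02), LBW 2 (-0.03) and ABW 3 (-0.034). *Grem1* ran from -0.20 to 0.51 and *Dcn* from -0.12 to 0.013, and both turned without LBW 3 only. The uncalled *Pdk4* (0.22 to 0.51), *Acvr1b* (0.11 to 0.35), *Tgfb2* (0.074 to 0.31), *Tgfbr3* (-0.33 to -0.11), *Tsc1* (-0.24 to -0.097), *Rps6kb2* (-0.24 to -0.051), *Ddit4* (0.14 to 0.29), *Trim54* (0.24 to 0.47), *Map1lc3a* (0.20 to 0.40) and *Fstl3* (0.028 to 0.21) kept their sign. The balance of restraining genes against *Fst* (0.72) stayed between 0.55 and 0.94 over the pups left out. It stayed between 0.64 and 0.79 over the restraining genes left out. *Fst*, with an LBW mean deviation of -0.53, was never left out and makes up the larger part of the balance, which limits how far it could move. The LBW mean of the restraining genes alone ran from 0.11 (without *Trim63*) to 0.26 (without *Mstn*). Of all features, 1124 passed the call, 627 higher and 497 lower in LBW, compared to 584 (306 and 278) by the methods' test, 335 (253 and 82) at a fold change of at least 2 and 3250 (1481 and 1769) without that criterion. Over the pups left out the count ran from 798 to 1546 (420 to 958 higher, 340 to 734 lower), and 0 to 125 passed after adjustment, all of the latter without LBW 2. The cause was not tested.

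Deviations of same-numbered pups had correlations of 0.087, 0.104 and 0.055. Differently numbered pups were not compared, so that whether the replicate numbers pair the pups was not tested. With the replicate number as a block, 1230 features and 1 member, *Trim63* (0.59, unadjusted p = 0.0336 by limma), passed the call, 1069 of the features shared with the unblocked fit, and 0 passed after adjustment. No detection call was available, which limits the dim rows.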
